A study of Mus musculus with 15 samples.

Results

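A set of 6 arrays of this mouse series on pressure overload of the heart are described here, the 3 labelled Sham 1 to 3 and the 3 labelled TAC 1 to 3, out of 15 in the whole series. They were chosen by their titles alone, and every one of them is labelled as left ventricle of a female animal. Sham 1 to 3 came from animals labelled as sham controls and TAC 1 to 3 from animals labelled as TAC operated. TAC is the usual abbreviation of transverse aortic constriction, a narrowing of the aorta by a ligature, although the labels do not spell it out. Both groups were otherwise labelled alike, and strain, age, genotype, the time after the operation and any measure of heart size were absent from the labels used here. The other 9 arrays are 6 male sham and 3 male TAC ventricles. The labels do not say whether each array holds a separate animal, so each p-value speaks of the spread among these 6 arrays, which may be technical.

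A constricted aorta makes the left ventricle pump against a raised load, and the muscle wall thickens. Cardiomyocytes under load are known to switch on genes of the fetal heart and of stretch signalling, among them the natriuretic peptides and skeletal α-actin, and to use less fatty acid as fuel. Fibroblasts in the loaded wall are known to deposit collagen and other matrix. The question these 6 arrays address is which transcripts differ between loaded and sham-operated female ventricles.

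Each array gave an intensity, in arbitrary units, for 12488 probe sets, and 12422 remained without the 66 controls. Intensities under 20 were set to 20 as a floor, log2 was taken, and the 7453 probe sets with the highest mean over the 6 arrays, which stand for 5661 genes, were tested. All log2 differences below are TAC minus sham on that floored scale, with SE after ±, which makes the change of dim genes smaller than it was. Heart muscle as the tissue, though not the labelled chamber, was borne out by 11 cardiomyocyte markers on the array. Their summed intensity lay between 37720 and 40147 on the sham arrays and between 34679 and 39190 on the TAC arrays. TAC 1 stood apart. Its median intensity was 21.2, against 25.7 to 26.7 on the other 5 arrays, and 146 tested probe sets lay over 2-fold below all other arrays there, against 0 to 7 elsewhere. TAC 2 held 20 probe sets over 2-fold above all others, and the other arrays held 1 to 5.

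Sham and TAC titles share the numbers 1 to 3, so differences were also taken within a number. Deviations from the group means of same-numbered arrays correlated at 0.24, 0.27 and 0.12 over the tested probe sets, and those of arrays with different numbers at -0.25 to 0.0010. Deviations cancel within each group, so the same-number and different-number values are tied to each other and do not establish a pairing. Arrays of the same number are called a pair below. The fit without a block was the main one, and a fit with the number as a block is quoted where it changes a call. The median difference was -0.11 for TAC 1 minus Sham 1, 0.04 for TAC 2 minus Sham 2 and -0.02 for TAC 3 minus Sham 3. Pair 1 had 292 probe sets more than 2-fold lower (2.35% of the 12422) and 32 more than 2-fold higher (0.258%). Pair 2 had 29 lower (0.233%) and 77 higher (0.62%), and pair 3 had 37 in each direction (0.298%). Large differences thus lay mostly downward in pair 1, upward in pair 2, and evenly in pair 3.

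**Figure D1:**
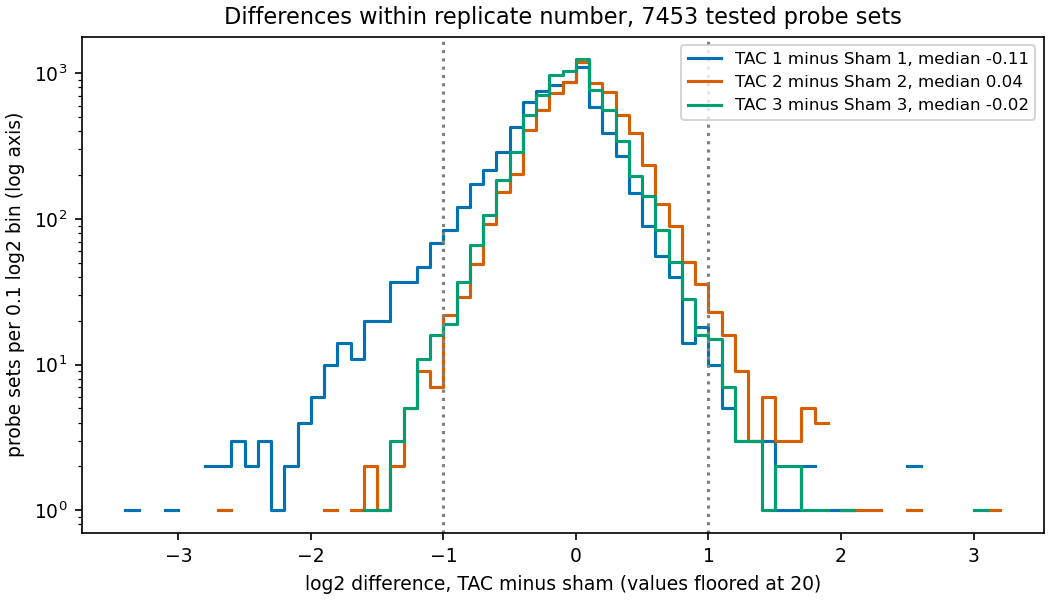
Number of the 7453 tested probe sets (log axis, bins of 0.1) by their log2 difference TAC minus sham within each replicate number; dotted lines mark a 2-fold difference. The TAC 1 minus Sham 1 curve has a long tail on the lower side, and its median is -0.11.

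Few probe sets passed the test. By limma, 4 of 7453 probe sets (0.0537%) passed at an adjusted p under 0.05, 3 of them higher under TAC (0.0403%) and 1 lower (0.0134%). Atrial natriuretic peptide (Nppa), skeletal α-actin (Acta1) and the LIM-domain protein Fhl1 rose, and the carboxylesterase Ces1d fell. With the pairs as a block Nppa alone passed (1 of 7453, 0.0134%). Before adjustment, 113 higher (1.52%) and 186 lower (2.5%) probe sets lay under 0.05 without the block, and 152 higher (2.04%) and 272 lower (3.65%) with it. These directions depended on the scaling. After quantile normalization 217 were higher and 160 lower, and after centring each array on its median 222 were higher and 121 lower. The adjusted calls were then 5 higher and 1 lower, and 6 higher and 1 lower.

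The count of calls also depended on single arrays. It was 6 without TAC 1, 2 without Sham 2 and 1 without any one of Sham 1, Sham 3, TAC 2 or TAC 3. Within pairs it was 57 of 7453 without pair 1, of which 45 were higher and 12 lower, 0 without pair 2 (118 higher and 434 lower before adjustment by limma) and 1 without pair 3. The fit without pair 1 gave nearly the same SE to unlike genes, 0.218 for each of Nppa, Acta1, Ces1d and Ankrd1. Its 57 calls thus take little account of the spread of each gene, and they do not measure the effect of pair 1 alone. Without the block, Nppa alone passed with a floor of 10, Ces1d alone when all 12422 probe sets were tested, and 0 with a floor of 40 (97 higher and 169 lower before adjustment). An exact permutation test of 3 against 3 arrays cannot give a two-sided p below 0.1. Having 3 arrays in a group limits how precise any value here can be.

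**Figure D2:**
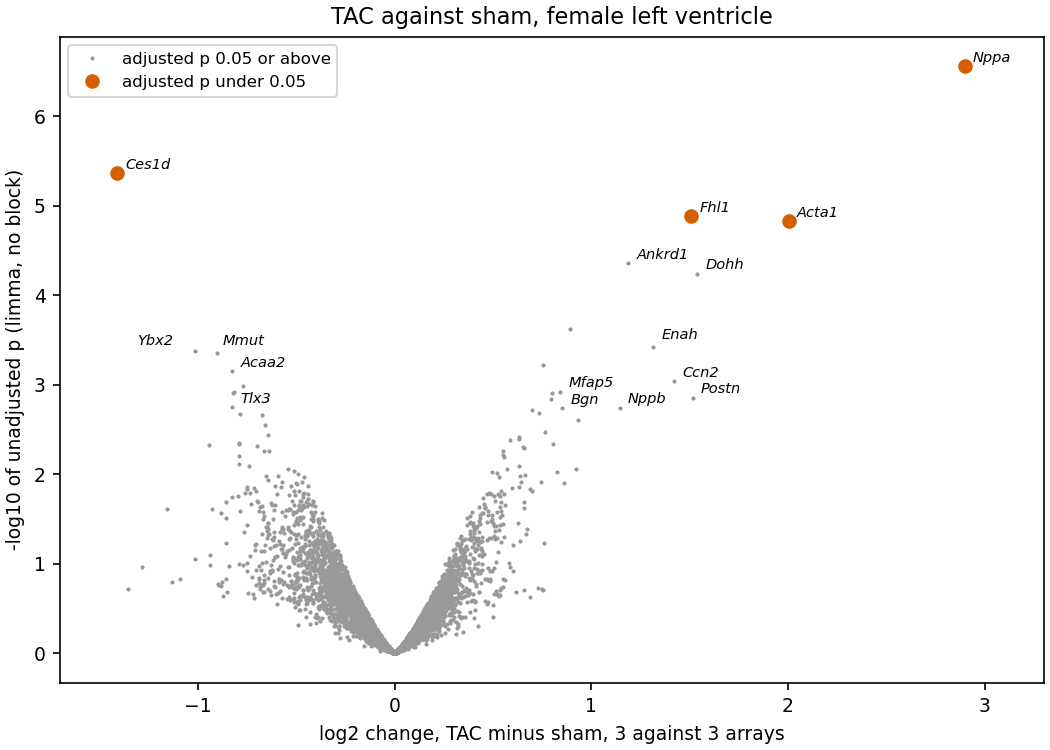
Log2 change (TAC minus sham, 3 against 3 arrays) against −log10 of the unadjusted p of limma without the block, for the 7453 tested probe sets. Nppa, Acta1 and Fhl1 on the right and Ces1d on the left pass at an adjusted p under 0.05, and the labelled gray points do not.

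A count that needs no model was also taken, and it is not a test. The 3 TAC values lay above all 3 sham values for 229 of the 12422 probe sets (1.84%) and below them for 416 (3.35%). Among the 7453 tested probe sets these were 226 (3.03%) and 413 (5.54%). An exact permutation test gives such a separation of 3 from 3 arrays a two-sided p of 0.1. It is therefore common without any difference between the groups, and the counts do not make a set of changed genes. Over the 12422 the split was 437 higher and 346 lower after quantile normalization, and 497 higher and 254 lower after median centring. Without TAC 1 it was 836 higher (6.73%) and 569 lower (4.58%). Fewer TAC arrays are easier to separate from the sham arrays, and such a count cannot fall when an array is left out. Those 2 counts are therefore not on one scale with the 229 and 416. All 3 pairs differed by more than 2-fold in the same direction for 6 probe sets that were higher (0.0483%) and 1 that was lower (0.00805%). The 6 were those of Nppa, Acta1, Fhl1, Ankrd1, Enah and Dohh, and the 1 was that of Ces1d.

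Natriuretic peptides are hormones that stretched cardiomyocytes secrete and that act on vessels and kidney to lower blood volume. Nppa encodes the atrial peptide, which the adult ventricle normally makes at a low level. Its intensity was 257, 292 and 243 on Sham 1 to 3 and 1487, 2549 and 1997 on TAC 1 to 3. The groups were far apart, and each TAC array was above every sham array. The log2 change was 2.90 ± 0.21, a 7.46-fold rise (95% interval 5.34 to 10.4, n = 3 each, limma adjusted p = 0.00205). Within pairs the changes were 2.53, 3.13 and 3.04, and the adjusted p with the block was 0.00885. Nppa stayed past the threshold when any single array was left out, with adjusted p from 0.000163 to 0.0365, but not with the block when pair 2 was left out (0.107).

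Nppb encodes the brain natriuretic peptide, whose gene lies next to Nppa on chromosome 4. Its intensity was 683, 1072 and 522 on the sham arrays and 1377, 1599 and 1876 on the TAC arrays. All 3 TAC values were above the sham values, but the sham values were spread over a range of their own, with Sham 2 the highest. The log2 change was 1.14 ± 0.26 and did not pass (limma adjusted p = 0.594). Within pairs it was 1.01, 0.58 and 1.84.

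The stretches just before the starts of 4 genes whose transcripts were higher in all 3 pairs are shown. Other genes were higher in all 3 pairs too, Fhl1, Enah and Dohh among them, and their stretches were not examined. Of the 4 shown, Nppa and Acta1 passed the test, and Nppb and Ankrd1 did not. Each is 250 bases upstream of the annotated start, on the gene's own strand, 5′ to 3′, from RefSeq on GRCm38.p6. Capitals mark matches on either strand to the muscle-type MCAT motif CATTCC, the CArG box that serum response factor binds, the GATA-factor core GATAA and the TATA box TATAAA. Nppa lies at chr4:148000472-148000721 on the plus strand, Nppb at chr4:147985650-147985899 on the plus strand, Acta1 at chr8:123894776-123895025 on the minus strand and Ankrd1 at chr19:36119845-36120094 on the minus strand.
Nppa: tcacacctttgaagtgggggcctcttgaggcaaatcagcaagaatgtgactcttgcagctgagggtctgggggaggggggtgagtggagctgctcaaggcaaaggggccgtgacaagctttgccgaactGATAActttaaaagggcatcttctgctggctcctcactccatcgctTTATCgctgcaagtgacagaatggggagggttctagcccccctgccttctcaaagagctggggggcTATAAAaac
Nppb: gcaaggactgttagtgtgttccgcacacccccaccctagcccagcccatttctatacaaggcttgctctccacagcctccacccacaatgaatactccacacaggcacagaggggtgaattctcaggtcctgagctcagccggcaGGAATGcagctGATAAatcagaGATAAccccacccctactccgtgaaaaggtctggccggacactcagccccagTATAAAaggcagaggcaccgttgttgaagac
Acta1: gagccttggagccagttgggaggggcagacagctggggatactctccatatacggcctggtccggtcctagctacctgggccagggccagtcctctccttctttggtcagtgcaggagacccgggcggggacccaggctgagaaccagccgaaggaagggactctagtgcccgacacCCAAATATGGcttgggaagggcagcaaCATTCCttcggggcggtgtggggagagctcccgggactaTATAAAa
Ankrd1: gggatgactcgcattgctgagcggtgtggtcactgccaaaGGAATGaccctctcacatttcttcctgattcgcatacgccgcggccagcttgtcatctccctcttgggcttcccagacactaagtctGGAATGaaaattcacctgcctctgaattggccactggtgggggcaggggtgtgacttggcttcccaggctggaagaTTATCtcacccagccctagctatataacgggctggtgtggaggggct
The Nppa stretch held 2 GATA cores, 121 to 117 and 75 to 71 bases before the start, and a TATA box. That of Nppb held 1 MCAT motif, 2 GATA cores and a TATA box. The Acta1 stretch held 1 CArG box 73 to 64 bases before the start, 1 MCAT motif at 46 to 41 and a TATA box. Ankrd1 had 2 MCAT motifs and 1 GATA core. No marked matches overlapped each other. Of 32851 promoter stretches of the same length in the table, 12.6% held an MCAT motif, 1.47% a CArG box, 22.6% a GATA core and 12.4% a TATA box. These are letter matches only, and no binding was measured.

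Acta1 encodes the actin of skeletal muscle, which the fetal heart makes in quantity. It measured 544, 1003 and 724 on Sham 1 to 3 and 3156, 3275 and 2472 on TAC 1 to 3. All 3 TAC arrays were far above the highest sham array. The rise was 2.00 ± 0.24, or 4.01-fold (95% interval 2.77 to 5.82, limma adjusted p = 0.0274). With the block the adjusted p was 0.0836. The call held without TAC 1 (0.0302) or Sham 2 (0.0385) and was lost without Sham 1 (0.146), Sham 3 (0.176), TAC 2 (0.217) or TAC 3 (0.0967), while the log2 change stayed between 1.79 and 2.23.

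Fhl1 encodes a LIM-domain protein of the sarcomere that takes part in the response to stretch. Its brightest probe set measured 121, 115 and 134 on the sham arrays and 300, 421 and 341 on the TAC arrays. The groups were well separated and TAC 2 was the highest. The rise was 1.51 ± 0.18, or 2.85-fold (95% interval 2.16 to 3.75, limma adjusted p = 0.0274), and the adjusted p with the block was 0.122. The call held without TAC 1 (0.0153) and was lost without any other single array (adjusted p 0.114 to 0.245). A second Fhl1 probe set, at 183, 104 and 165 on the sham and 278, 301 and 259 on the TAC arrays, was also higher on every TAC array, but its change of 0.93 ± 0.22 did not pass (0.654). Another Fhl1 probe set was under the floor on all 6 arrays.

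Ankrd1 encodes a cardiac ankyrin repeat protein that sits on titin and enters the nucleus under strain. It measured 1198, 1275 and 1509 on the sham arrays and 2798, 2988 and 3263 on the TAC arrays. Its pairs were the most even of the 12 rises named by size, at 1.22, 1.23 and 1.11. The change of 1.19 ± 0.16, or 2.28-fold (95% interval 1.77 to 2.94), fell short of the threshold (limma adjusted p = 0.0652, and 0.122 with the block). It passed under 6 of 19 alternative settings without the block, quantile normalization (0.0262) and median centring (0.0170) among them. It did not pass when any single array was left out (limma adjusted p 0.0560 to 0.433).

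Ces1d, also known as a triacylglycerol hydrolase, cleaves stored fat. It measured 57.0, 52.7 and 53.1 on Sham 1 to 3 and 8.69, 12.9 and 21.2 on TAC 1 to 3. The sham arrays lay close together, and TAC 1 and TAC 2 were under the floor of 20. The log2 value therefore fell by 1.41 ± 0.14 on the floored scale (limma adjusted p = 0.0162), a size that the floor sets in part (-1.95 with a floor of 10 and -0.44 with a floor of 40). With the block the adjusted p was 0.0836. The call held without TAC 1 (0.0189) and was lost without any other single array (adjusted p 0.0961 to 0.176). A second, dimmer Ces1d probe set was not tested and read 22.8, 18.5 and 18.7 on the sham arrays and 0, 3.66 and 0 on the TAC arrays, the same order at intensities near or under the floor. Adipocytes also express Ces1d. The summed intensity of 10 adipocyte markers other than Lpl was 323 to 386 on the sham and 296 to 354 on the TAC arrays. Of these, 3 (Fabp4, Pparg and Cidec) were under the floor on all 6. With Lpl, which cardiomyocytes make too, the sum was 2366 to 2934 on the sham and 1792 to 2284 on the TAC arrays. Of all 11 adipocyte markers on the array 6 were bright enough to be tested, 2 with a positive and 4 with a negative change. The part of adipocytes in the fall of Ces1d was not tested. In a bulk tissue, fewer cells of a type and less RNA per cell cannot be told apart.

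**Figure D3:**
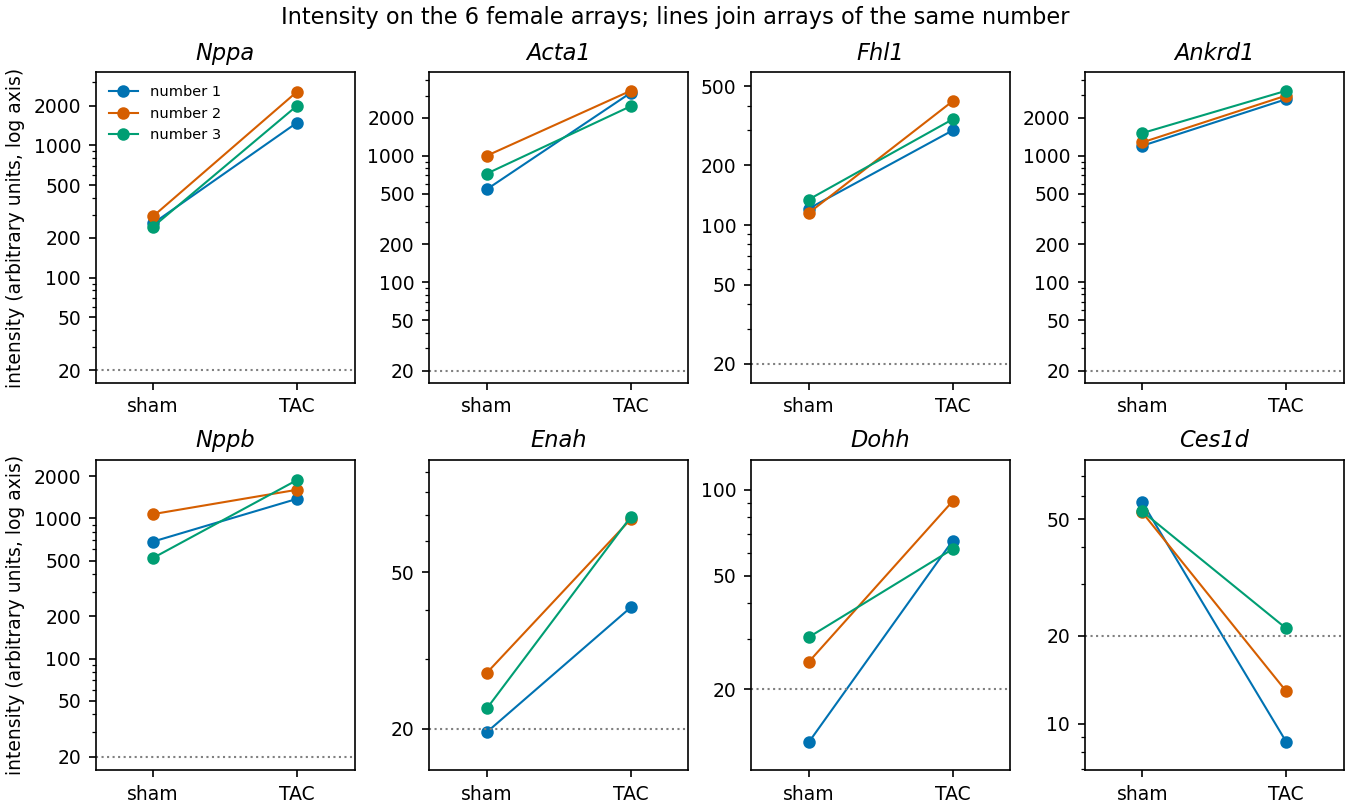
Intensity in arbitrary units (log axis) of 8 genes on the 6 female arrays, with lines joining Sham n to TAC n and a dotted line at the floor of 20. Nppa, Acta1, Fhl1, Ankrd1, Nppb, Enah and Dohh are higher on TAC than on sham in every pair, and Ces1d is lower.

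Of 28 genes listed for hypertrophic stress and stretch, 21 were on the array and 19 were tested. Nppa, Acta1 and Fhl1 rose and the other 16 did not pass, the list having been drawn up with earlier results of these arrays known. Of the 19, 14 had a positive and 5 a negative change, with a median of 0.54, against -0.04 over the 5661 genes, of which 41.0% were positive. That overall median was 0.02 without TAC 1, 0.0017 after quantile normalization and 0.04 after median centring. The groups did not overlap for 12 that were higher and 1 that was lower, against 226 higher (3.03%) and 413 lower (5.54%) of the tested probe sets. The list median was 0.34, 0.34 and 1.00 in pairs 1, 2 and 3.

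Among those that did not pass were several whose groups did not overlap. Connective tissue growth factor, Ccn2, a matricellular signal that load induces, read 58.3, 69.1 and 57.5 on sham and 99.4, 190 and 234 on TAC arrays. TAC 1 was the lowest of the TAC arrays, and the change was 1.42 ± 0.29 (limma adjusted p = 0.515, and 0.0120 without TAC 1). Without any other single array the limma adjusted p of Ccn2 was 0.712 to 0.999. Enah, an actin regulator of the intercalated disc, went from 19.6, 27.7 and 22.5 to 40.7, 68.3 and 69.2, a change of 1.32 ± 0.24 (adjusted p = 0.329, and 0.0189 without TAC 1). Leaving out any other single array gave Enah a limma adjusted p of 0.504 to 0.999. A second Enah probe set gave only 0.48 ± 0.28 and another was under the floor, so the probe sets of this gene differed in size. Rcan1, an inhibitor of calcineurin that calcineurin signalling itself induces, was at 96.0, 80.0 and 54.0 on the sham and 171, 112 and 120 on the TAC arrays. Its change was 0.82 ± 0.25 (adjusted p = 0.997). Xirp1, an actin-binding protein of the intercalated disc, and Ccn1, a relative of Ccn2, had changes of 0.54 ± 0.20 and 0.56 ± 0.20 without overlap of the groups. Fhl2, a relative of Fhl1, was the member without overlap on the lower side, at 484, 413 and 457 on the sham and 371, 322 and 344 on the TAC arrays. Its change was -0.38 ± 0.15. Myh7, the β-myosin heavy chain of the fetal ventricle, read 5043, 4179 and 4760 on the sham and 4580, 4349 and 4902 on the TAC arrays. Its groups overlapped and the change was -0.01 ± 0.15, but the probe set is one of a gene family, can bind other myosin transcripts and changed sign with scaling.

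Dohh, the enzyme that completes the hypusine residue of a translation factor, was in no list. Its probe set read 13.1, 24.9 and 30.4 on the sham and 66.2, 90.9 and 61.9 on the TAC arrays, so that the groups were separated and Sham 1 was under the floor. The change was 1.54 ± 0.22 (limma adjusted p = 0.0709, and 0.167 with the block). The gene name comes from the platform annotation of an expressed sequence tag and was not checked by sequence.

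Matrix genes were mostly higher under TAC, by small amounts, and none passed the test. Of 63 listed, 52 were on the array and 45 were tested, of which 36 had a positive and 9 a negative change, with a median of 0.18. The groups did not overlap for 9, all of them higher (3.03% of all tested probe sets were higher in this way and 5.54% lower). Without TAC 1, where groups separate more easily, they did not overlap for 20 higher and 2 lower. The shares to set beside these are 6.73% higher and 4.58% lower, over all 12422 probe sets, untested ones included. Postn, a matricellular protein of activated fibroblasts, read 30.3, 28.5 and 37.5 on the sham and 58.8, 162 and 79.6 on the TAC arrays. TAC 2 was the highest by far, and the change of 1.52 ± 0.33 (limma adjusted p = 0.535) was 0.95, 2.51 and 1.09 by pair. Biglycan, Bgn, a small proteoglycan of collagen fibrils, went from 304, 283 and 295 to 420, 678 and 522, a change of 0.85 ± 0.19, while a second probe set gave 0.27 ± 0.19. Mgp, the matrix Gla protein that keeps calcium salts from forming in vessel walls, went from 103, 112 and 103 to 152, 219 and 189, a change of 0.80 ± 0.18. Mfap5, a microfibril protein, had a change of 0.84 ± 0.18, with 0.16 ± 0.20 from a second probe set. Col8a1, a short-chain collagen of vessel and valve, had one of 0.92 ± 0.28.

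The fibrillar collagens changed less. Col1a1, the main chain of type I collagen, read 129, 156 and 143 on the sham and 140, 290 and 174 on the TAC arrays. The groups overlapped, and the change was 0.43 ± 0.26. Col3a1 gave 0.19 ± 0.27 and Col1a2 0.01 ± 0.15. TAC 2 was the highest of the 6 arrays for each of these 3 collagens, which were chosen after their values were seen. The median of the matrix list was 0.05, 0.37 and 0.10 in pairs 1, 2 and 3. It was 0.06 without TAC 2, with 29 of 44 tested members positive, and 0.31 without TAC 1. The summed intensity of 14 fibroblast markers was 2357 to 2466 on the sham arrays and 2208, 3319 and 2822 on TAC 1 to 3, and none of the 14 was under the floor throughout. Dcn, which is also in the matrix list, makes up much of that sum. Col1a1, Col1a2, Col3a1, Lum and Mfap5 are in both lists too, so the sum is not independent of the matrix values. Gene by gene, 6 of 13 tested fibroblast markers were positive and 7 negative, with a median of -0.06, which was 0.09 without TAC 1 and -0.09 without TAC 2. The summed intensity of 17 macrophage and leukocyte markers was 751 to 900 on the sham and 710, 1079 and 795 on the TAC arrays, with 7 under the floor on all 6, Adgre1 and Ptprc among them. The part of these cells in the matrix values was not tested.

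Genes of mitochondrial fatty acid oxidation, the main fuel pathway of the adult heart, were lower as a list, and none passed the test. Of 35 listed, 29 were on the array and 28 were tested, of which 27 had a negative and 1 a positive change. The median was -0.34, and it was -0.41, -0.17 and -0.48 in pairs 1, 2 and 3. The groups did not overlap for 13 that were lower and 0 that were higher, against 5.54% and 3.03% of the tested probe sets. The list stayed lower after quantile normalization (median -0.28, 26 of 28 negative), after median centring (-0.26, 23 of 28) and without TAC 1 (-0.19, 21 of 28). The 1 positive member was Pdk4, the kinase that turns off pyruvate dehydrogenase, at 86.1, 178 and 83.7 on the sham and 49.4, 184 and 174 on the TAC arrays. Its values overlapped widely.

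The 4 largest changes were those of Acaa2, Decr1, Eci1 and Ech1. Acaa2, the thiolase of the last step of the β-oxidation spiral, read 839, 725 and 968 on the sham and 465, 462 and 493 on the TAC arrays. The 3 TAC values lay close together, well under the lowest sham value, and the change was -0.83 ± 0.16 (limma adjusted p = 0.432). Ech1, an isomerase for unsaturated chains, read 1090, 1237 and 1301 on the sham and 625, 761 and 747 on the TAC arrays. Its change was -0.77 ± 0.16, with -0.80, -0.70 and -0.80 by pair (adjusted p = 0.515). Decr1 and Eci1, a reductase and an isomerase that also prepare unsaturated chains, each changed by -0.79, with SE of 0.21 and 0.23. Medium-chain acyl-CoA dehydrogenase, Acadm, read 75.7, 54.2 and 92.9 on the sham and 32.7, 52.9 and 46.2 on the TAC arrays. Its change was -0.75 ± 0.25, and its pair 2 hardly differed. The electron carriers that take over from the dehydrogenases were lower too, Etfdh by -0.63 ± 0.22, Etfa by -0.54 ± 0.23 and Etfb by -0.41 ± 0.15, all without overlap. Cpt2, the carnitine transferase of the inner membrane, was at -0.42 ± 0.17. Of other enzymes of the spiral, Hadhb changed by -0.44 ± 0.16 without overlap and Echs1 by -0.44 ± 0.19 with overlap. The dehydrogenases other than Acadm changed less, Acadl by -0.29, Acads by -0.24 and Hadh by -0.08. Among uptake genes the lipase Lpl was at -0.42, the transporters Slc27a1 and Cd36 at -0.24 and -0.16, and Fabp3, the fatty acid binding protein of heart, at -0.12. The receptor Ppara, which controls many of these genes, was at -0.06.

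**Figure D4:**
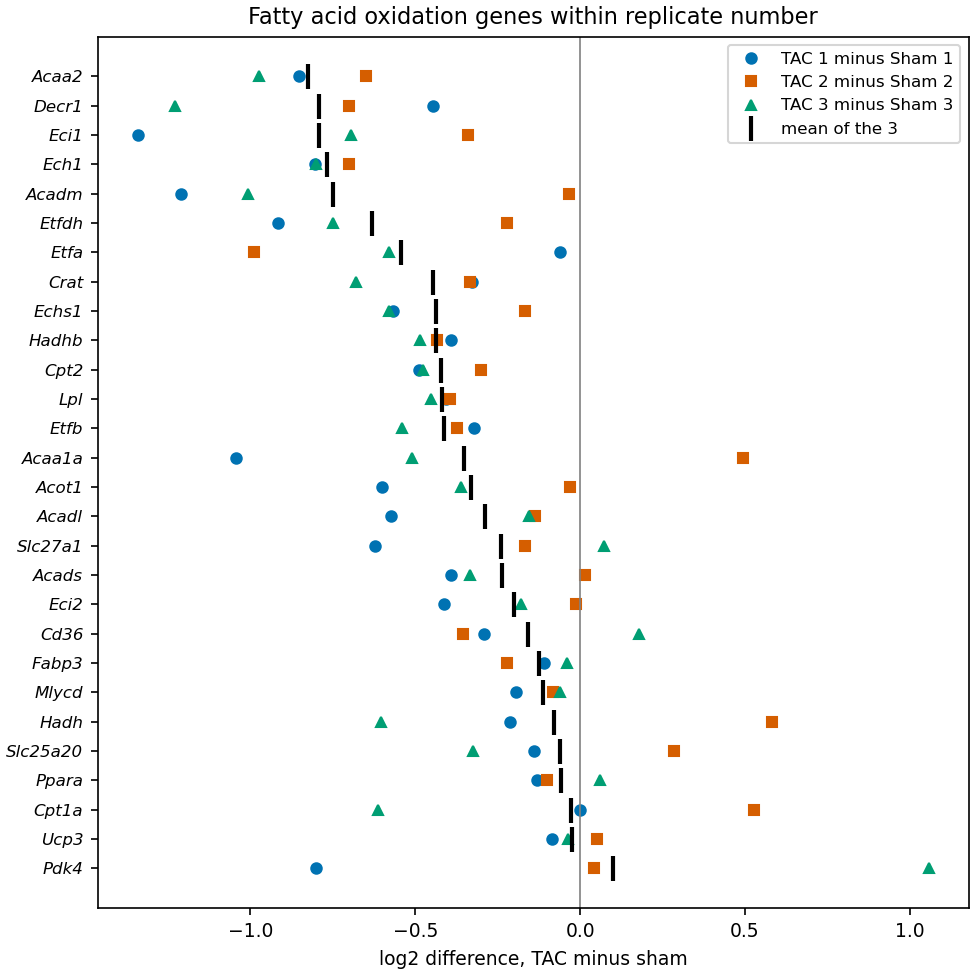
Log2 difference TAC minus sham within each replicate number for the 28 tested fatty acid oxidation genes, ordered by their mean (black bar). Acaa2, Decr1, Eci1 and Ech1 lie on the lower side in all 3 pairs, and Pdk4 spans both sides.

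The respiratory chain and the tricarboxylic acid cycle showed small negative changes in most members, and none passed. Of 61 tested genes of oxidative phosphorylation (77 listed, 64 on the array), 55 were negative and 6 positive, with a median of -0.20. Without overlap 23 were lower and 0 higher, against 5.54% and 3.03% of all tested probe sets. Without TAC 1 the median was -0.15, with 49 of 60 negative, and it was -0.16 and -0.12 after quantile normalization and median centring. Ndufa7, a subunit of complex I, read 756, 818 and 839 on the sham and 576, 607 and 642 on the TAC arrays. The change of -0.40 ± 0.15 was nearly the same in each pair. Atp5o, a stalk subunit of ATP synthase, read 1319, 1449 and 1436 on the sham and 1065, 1101 and 1090 on the TAC arrays, a change of -0.37 ± 0.14. Sdha, the flavoprotein of complex II, was dim, at 35.8, 37.5 and 36.9 on the sham and 13.8, 30.3 and 28.8 on the TAC arrays.

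In the tricarboxylic acid cycle 15 of 17 tested genes (21 listed, 19 on the array) were negative, with a median of -0.21, and 7 were lower without overlap, against 5.54% of all tested probe sets. The median was again -0.21 without TAC 1. Citrate synthase, Cs, which opens the cycle, read 136, 125 and 169 on the sham and 112, 102 and 120 on the TAC arrays, a change of -0.36 ± 0.17. The mitochondrial isocitrate dehydrogenase Idh2 changed by -0.35 ± 0.16, Idh3g by -0.32 ± 0.15 and the succinyl-CoA ligase subunit Sucla2 by -0.47 ± 0.22. For glycolysis and glucose uptake the direction depended on single arrays. Of 19 tested genes (25 listed, 21 on the array) 11 were positive and 8 negative, with a median of 0.01, which was 0.10 without TAC 1 and -0.08 without TAC 2, with 14 negative. The muscle enolase Eno3 read 929, 885 and 1030 on the sham and 651, 807 and 672 on the TAC arrays, a change of -0.42 ± 0.16. Pgam1, a mutase of the same pathway found in most tissues, was dim and changed by 0.39 ± 0.18. The insulin-responsive transporter Slc2a4 was at -0.23 ± 0.16.

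Of calcium handling and ion channel genes (35 listed, 24 on the array), 14 of 19 tested members were negative (73.7%), with a median of -0.14 and none past the test. Of all 5661 tested genes 59.0% were negative, so lower values were common outside the list too. Without TAC 1 the list had 11 of 19 negative and a median of -0.08, and the median was -0.08 after median centring. Ryr2, the ryanodine receptor through which the reticulum releases calcium, read 482, 453 and 488 on the sham and 237, 367 and 288 on the TAC arrays. The groups were separated, TAC 1 was the lowest, and the change was -0.70 ± 0.19 (limma adjusted p = 0.917). Hrc, a calcium-binding protein of the reticulum, had very even values, 929, 942 and 921 on the sham and 711, 736 and 713 on the TAC arrays, and a change of -0.37 ± 0.14. The potassium channels Kcnh2 and Kcnq1, which repolarize the cardiomyocyte, changed by -0.54 ± 0.18 and -0.29 ± 0.16. Atp2a2, the calcium pump of the reticulum, read 4272, 4952 and 4001 on the sham and 4035, 3985 and 3975 on the TAC arrays, with overlap and a change of -0.13 ± 0.15.

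The sarcomere list was balanced, with 6 of 14 tested members positive and 8 negative (19 listed, 16 on the array), a median of -0.03 and none past the test. That sign turned under median centring (0.05) and without TAC 2 (0.01). Myom2, an M-band protein, read 102, 96.1 and 116 on the sham and 106, 211 and 187 on the TAC arrays, with TAC 1 among the sham values. Tnni1, the fetal troponin I, changed by -0.48 ± 0.18, and Tnni3, the adult cardiac form, by -0.32 ± 0.16. Myh6, the α-myosin heavy chain of the adult mouse ventricle, read 5509, 4873 and 5968 on the sham and 2605, 4147 and 5321 on the TAC arrays. TAC 1 was far below the other 5, TAC 3 was inside the sham range, and the change was -0.49 ± 0.25.

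**Figure D5:**
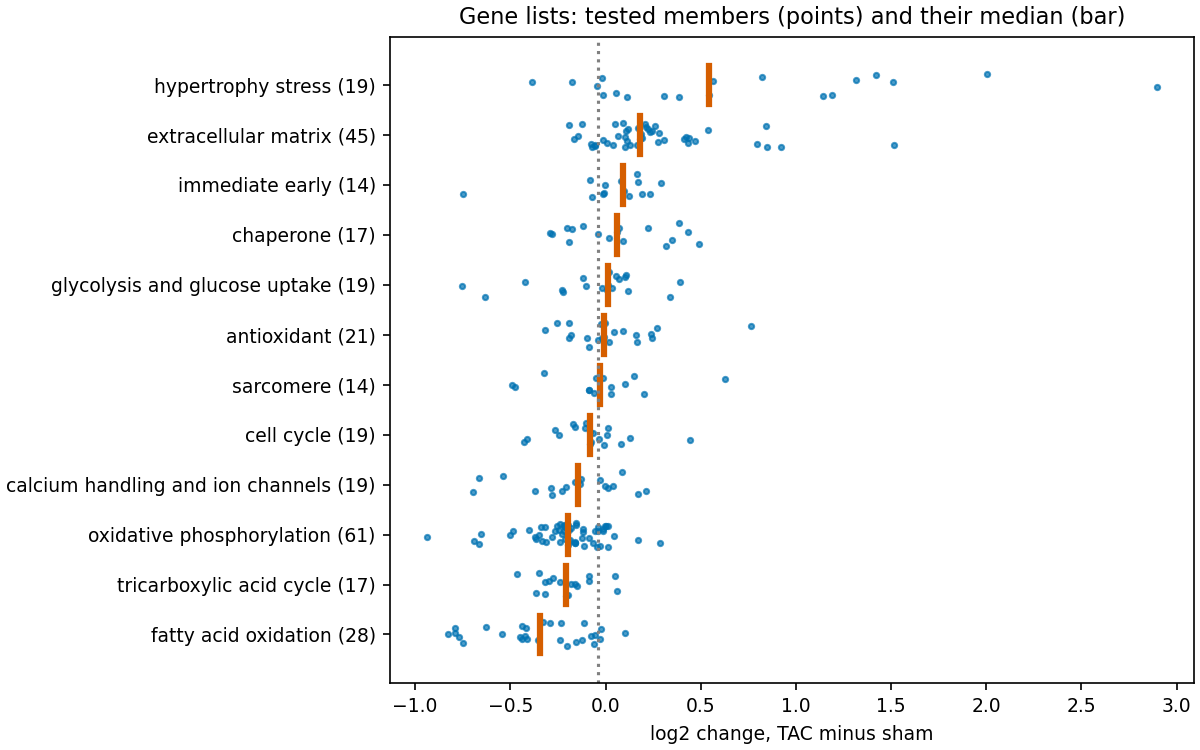
Log2 change of every tested member (points) of 12 gene lists, with the list median (orange bar), the number tested in brackets, and a dotted line at the median of all 5661 genes (-0.04). The hypertrophy stress list has the highest median (0.54) and fatty acid oxidation the lowest (-0.34).

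No member of the remaining lists passed. Gpx3, a secreted glutathione peroxidase, read 662, 590 and 480 on the sham and 898, 1187 and 863 on the TAC arrays. Its groups were separated and the change was 0.76 ± 0.19 (limma adjusted p = 0.830), but the antioxidant list as a whole had 9 of 21 tested members positive and a median of -0.01. That median was 0.11 without TAC 1, 0.02 after quantile normalization and 0.08 after median centring. Among 17 tested chaperones 10 were positive, with a median of 0.06, which was -0.06 without TAC 2 and 0.20 without TAC 1. The cytosolic chaperone Hsp90aa1 read 190, 167 and 168 on the sham and 209, 257 and 243 on the TAC arrays, a change of 0.43 ± 0.16. The small heat shock proteins Cryab and Hspb8 changed by 0.38 ± 0.16 and 0.32 ± 0.17, both without overlap. Of 14 immediate early genes 8 were positive, with a median of 0.09 and none without overlap. After median centring 13 were positive, after quantile normalization 12 and without TAC 1 11. Egr1, a transcription factor of early growth signals, read 81.5, 47.6 and 49.7 on the sham and 55.3, 87.9 and 72.5 on the TAC arrays, with overlap. Of 19 cell cycle genes 14 were negative (73.7%, against 59.0% of all 5661 tested genes), with a median of -0.08 and none without overlap. After median centring 10 of the 19 were negative, with a median of -0.0089, and the median was -0.01 without TAC 1. The cyclin Ccnd2 and the kinase Cdk1 changed by 0.44 ± 0.22 and -0.41 ± 0.23, both at intensities near the floor.

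Besides Ces1d, most of the negative changes of largest size among probe sets without overlap had their lowest value on TAC 1, and none of them passed. Mef2c, a transcription factor of muscle development, read 120, 112 and 127 on the sham and 20.6, 100 and 99.7 on the TAC arrays. Only TAC 1 was far from the rest, the change was -1.01 ± 0.53 (by pair -2.54, -0.15 and -0.35), and 2 other tested Mef2c probe sets gave -0.04 ± 0.21 and 0.28 ± 0.20. Atp5c1, the γ subunit of ATP synthase, was of the same kind, at 1130, 1160 and 1192 on the sham and 217, 1004 and 1022 on the TAC arrays. Its second probe set gave -0.28 ± 0.19. Kcnk3, a background potassium channel, and Selenbp1, a selenium-binding protein, were also lowest on TAC 1, with changes of -0.86 ± 0.33 and -0.94 ± 0.25. The methylmalonyl-CoA mutase Mmut read 45.4, 40.1 and 46.9 on the sham and 6.08, 25.4 and 25.6 on the TAC arrays, a change of -0.90 ± 0.17. Ybx2, a nucleic acid binding protein of germ cells, was at 40.02, 51.3 and 49.3 on the sham and 2.14, 22.0 and 28.0 on the TAC arrays, with pair changes from -1.22 to -0.82. The homeobox gene Tlx3 was under the floor on all 3 TAC arrays, at least 1.77-fold lower than on the sham arrays. Car14, a membrane carbonic anhydrase, changed by -0.86 ± 0.30.

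Nppa, Myl7 and Myl4 mark atrial muscle, so atrial tissue was measured beside the rise of Nppa. The 6 atrial markers other than Nppa summed to 335 to 524 on the sham and 285 to 380 on the TAC arrays, ranges that overlapped, with Bmp10 and Nr2f2 under the floor on all 6. The atrial light chain Myl7 read 217, 138 and 210 on the sham and 140, 154 and 105 on the TAC arrays, and Myl4 read 239, 148 and 244 on the sham and 97.5, 153 and 122 on the TAC arrays. Acta1 is a gene of skeletal muscle, of which 13 markers summed to 1152 to 1362 on the sham and 1184 to 1424 on the TAC arrays, with Myh1 and Tnni2 under the floor on all 6. Endothelial markers (10 genes) summed to 673 to 715 on the sham and 625 to 760 on the TAC arrays, smooth muscle markers (8) to 784 to 865 and 760 to 855, and red blood cell markers (4) to 861 to 1524 and 819 to 1175.

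The male arrays of the series share no sample with the 6 described here and gave a comparison of their own. Of the 12 rises named by size, all 12 were positive in males as well, with a median of 1.14. Acta1 changed by 2.22 ± 0.19 in males and by 2.00 in females, Nppa by 2.76 ± 0.29 and 2.90, Ankrd1 by 1.01 ± 0.15 and 1.19, and Dohh by 1.60 ± 0.19 and 1.54. In males 10 of 7453 probe sets passed by limma in the fit of all 15 arrays, all higher (0.134%). Of the 12 negative changes named by size 10 were negative in males, with a median of -0.41, and Mef2c (0.01 ± 0.36) and Ybx2 (0.04 ± 0.20) were not. Of the probe sets that did not overlap in females and were in both fits, 168 of 224 higher ones were positive in males (75.0%) and 295 of 407 lower ones negative (72.5%), against 47.6% and 52.3% of all 7255.

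Whether the TAC effect differed between females and males was tested as an interaction, and 0 of 7453 probe sets passed by limma, with 191 at an unadjusted p under 0.05 (2.56%). The difference for Ces1d, which changed by -0.70 ± 0.21 in males, was -0.71 ± 0.33, female minus male (limma, unadjusted p = 0.0453, adjusted p = 1.00). For Ybx2 it was -1.06 ± 0.30 and for Selenbp1 -0.76 ± 0.30, each with a limma adjusted p of 1.00. For Nppa it was 0.14 ± 0.44 and for Acta1 -0.21 ± 0.29. Over the gene lists the male medians were 0.43 for hypertrophy stress, 0.21 for the matrix, -0.15 for fatty acid oxidation with 20 of 28 negative, -0.16 for oxidative phosphorylation and -0.21 for the tricarboxylic acid cycle. No member of these 5 lists reached an unadjusted p under 0.05 for the difference between females and males. Of 5528 genes, 54 with a larger and 71 with a smaller female value did. Such genes are few, so their absence from a list does not show that females and males agree. The sarcomere and antioxidant lists held 1 each, with a smaller female value. That of the sarcomere list was Tnni1, at 0.06 in males and a difference of -0.54 ± 0.20 (limma, unadjusted p = 0.0159).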

How the data were processed

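The authors deposited 1 table of probe-set intensities on a linear scale in arbitrary units; the software, background correction and scaling behind them are nowhere stated in the labels or the table. Their scale was kept. Names came from the platform annotation, updated through a RefSeq gene table of GRCm38.p6 (names and promoter stretches only). Of 12422 probe sets 10833 had 1 symbol, 396 several and 1193 none, and 10817 matched the table. After the floor of 20 and log2, the top 60% by mean were tested on the 6 arrays with lmFit and eBayes of limma 3.58.1 (R 4.3.3), with Benjamini-Hochberg adjustment and a threshold of 0.05. The design without a block was the main one, and a second had the number as a block. The interaction used all 15 arrays. The method was tested on simulated data.

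For lists, the brightest probe set stands for a gene. Named were all calls, the 12 largest rises and the 12 largest falls among genes without overlap and with 1 sign in all 3 pairs, Nppa, Acta1, Ankrd1 and Ces1d, the 4 genes of smallest p in each list, and further probe sets of these. Fhl2, Xirp1, Ccn1, Acadm, Acadl, Acads, Hadh, Hadhb, Echs1, Etfdh, Etfa, Etfb, Cpt2, Lpl, Slc27a1, Fabp3, Cd36, Ppara, Pdk4, Slc2a4, Myh7, Atp2a2, Rcan1, Myl7 and Myl4 were added after their values were seen. Comparison, lists and rules were chosen with earlier results of these data known. Alternatives varied the scaling, the floor, the filter, the variance model, array weights, the block and the arrays used.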

Additional observations from a re-analysis of the deposited data

How the results depend on the processing

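The count of probe sets past the threshold without the block was 4. It was 7 with median centring, 1 with a floor of 10, 0 with a floor of 40, 1 with all probe sets tested, 10 with array weights and 1 with the replicate block, and it ranged from 1 to 6 when 1 array was left out. With the replicate block it was 1. It was 8 with median centring, 0 with a floor of 10, 0 with a floor of 40, 4 when 20 was added to each value instead of flooring, 0 with all probe sets, 7 with a trended variance, 4 with no replicate block, and 0 to 57 when 1 pair was left out. The 57 came without pair 1, from a fit whose SE was nearly the same for unlike genes. The floor of 40 and the fit of all probe sets hold many probe sets that sit at the floor on every array and have no spread. Beside the 0 calls by limma with the floor of 40 and no block stood 97 higher and 169 lower before adjustment. With the block these were 148 and 259 with a floor of 10, 135 and 263 with a floor of 40, and 216 and 359 with all probe sets.

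Nppa kept its call under 17 of 19 alternatives, Acta1 under 11, Fhl1 under 10 of 19 and Ces1d under 10 of 18, and none of the 4 changed direction. Non-overlapping probe sets that were higher numbered 437 with quantile normalization and 497 with median centring, against 229. Without TAC replicate 1 they numbered 836, but such a count cannot fall when an array is left out. Lower ones numbered 254 with median centring, against 416. Those past 2-fold lower in all 3 pairs numbered 3 with a floor of 10 and 0 with a floor of 40, against 1. The sign turned for values near 0. Myh7 was at 0.14 with quantile normalization, 0.070 with median centring, 0.052 with array weights, between -0.089 and 0.046 with 1 array left out, and between -0.048 and 0.050 with 1 pair left out. The second Mef2c probe set was at 0.0099 with quantile normalization, 0.042 with median centring, between -0.22 and 0.15 with 1 array left out and between -0.19 and 0.18 with 1 pair left out. Egr1 lay between -0.0067 and 0.72 with 1 pair left out. The cause of these shifts was not tested.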
